A study of Mus musculus with 4 samples.

Results

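Notch receptors, their ligands and the HES and HEY genes that Notch signaling turns on were followed in mouse vascular smooth muscle cells (VSMCs) whose m6A writer subunit *Mettl14* had been knocked down. The members are the rows of the deposited count table whose symbol is *Notch1*, *Notch2*, *Notch3*, *Notch4*, *Jag1*, *Dll4*, *Hes1*, *Hey1*, *Hey2* or *Heyl*. All 10 were found among the 48587 symbols of the table. The VSMCs were primary cultures grown out of the descending aorta of C57BL/6J mice aged 8 to 12 weeks, after the adventitia had been digested away and the endothelium scraped off. They were infected for 24 hours with a lentivirus and collected 48 hours after fresh medium had been added. The shCTR group carried a nontargeting hairpin against a plant microRNA, in a vector that also encodes GFP, and the shMettl14 group carried a hairpin against *Mettl14*, whose effects on other transcripts cannot be told apart from the loss of *Mettl14* here. Each group had 2 poly-A–enriched mRNA-seq libraries, which bear the letters A and B. Nothing in the labels says whether a letter marks a shared culture, so it is not known whether the spread between libraries of a group is biological or technical. Libraries of the same letter deviated together (correlation 0.578 across genes), and the source of this was not tested.

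Notch receptors are single-pass membrane proteins that are cut when a ligand on a neighboring cell binds them. The released intracellular domain enters the nucleus, joins the DNA-binding protein RBPJ and a Mastermind coactivator, and turns on HES and HEY genes, which encode basic helix-loop-helix repressors. In arteries, Notch3 is the receptor best known from smooth muscle, and Notch1, Notch4 and the ligand Dll4 are best known from endothelium. Jag1 on endothelial and smooth muscle cells is the ligand known to act in the arterial wall, where Notch signals take part in the growth and differentiation of smooth muscle.

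The targeted gene was lower in the knockdown, with 18.0 and 19.9 CPM (counts scaled to the library size with edgeR's TMM factors) in shCTR A and B and 4.6 and 4.37 in shMettl14 A and B, 23.6% of the control level. Library totals lay between 114343653 and 124815868 counts, and a count of 0 allows up to 3 counts, at most 0.0262 CPM, for counting error only. The smooth muscle markers were plentiful, with *Acta2* between 2073 and 3547 CPM and *Tagln* between 1616 and 2449 CPM, and *Myh11*, the late contractile marker, lay between 75.0 and 338 CPM. Endothelial markers were plentiful as well. *Cdh5* (VE-cadherin) lay between 508 and 818 CPM, *Pecam1* between 477 and 820, *Emcn* between 484 and 2100 and *Erg* between 87.3 and 154, although *Kdr* did not exceed 9.75 CPM and *Cldn5* 1.15 CPM. All 13 endothelial markers examined were detected, and their summed level was 2352 and 4321 CPM in shCTR A and B and 2169 and 2817 CPM in shMettl14 A and B. These libraries, labelled as VSMCs, also hold endothelial transcripts, and in bulk RNA a change in the number of cells of a type and a change in RNA per cell cannot be told apart. Leukocyte markers summed to at most 15.3 CPM. The 10 smooth muscle markers summed to 8353 and 6736 CPM with shCTR and 5300 and 5578 CPM with shMettl14, so the sums did not overlap. Taken singly, 4 of the 10 lay below in both shMettl14 libraries and 0 above, beside 13.3% of all genes below. Of the 13 endothelial markers 0 lay below and 0 above. The fitted difference was below 0 for 10 of the 10 and for 10 of the 13 endothelial markers, while 51.2% of all genes lay above 0. The part of these marker differences in the Notch values was not tested.

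**Figure D1:**
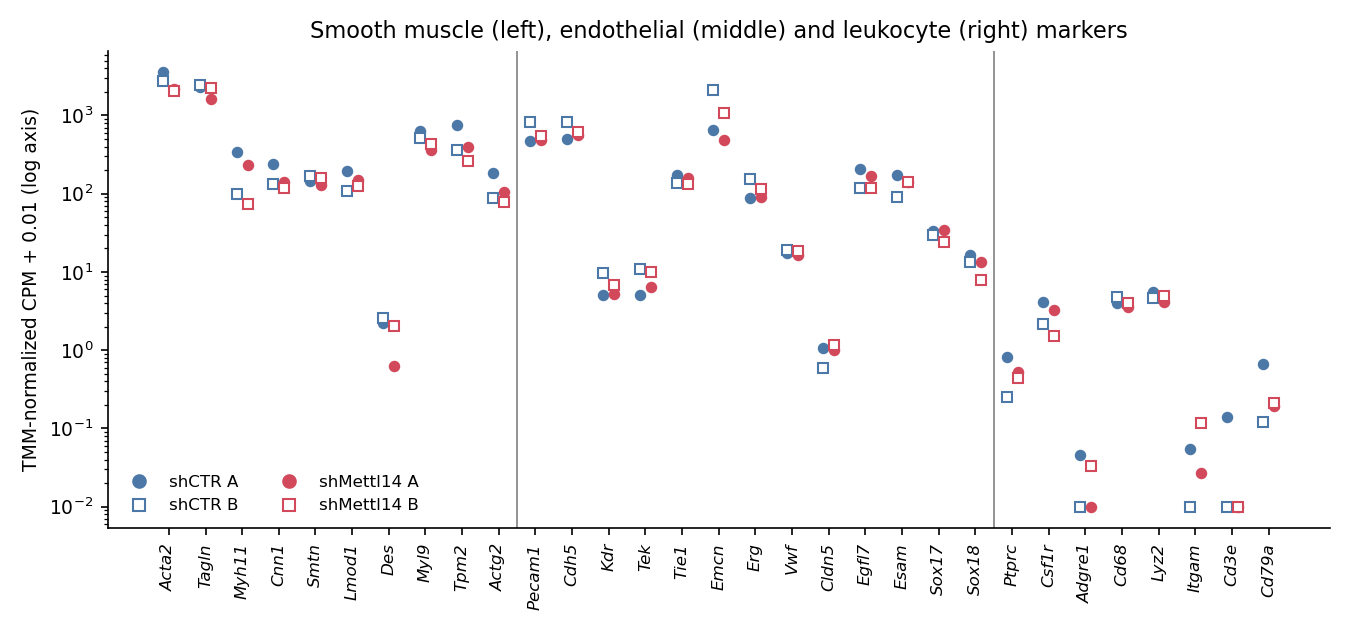
TMM-normalized CPM plus 0.01 on a log axis (vertical) of 10 smooth muscle, 13 endothelial and 8 leukocyte markers (horizontal) in the 4 libraries; blue is shCTR, red is shMettl14, filled circles are A and open squares B. Endothelial markers such as *Cdh5* lie between 508 and 818 CPM, and the leukocyte markers sum to at most 15.3 CPM.

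Levels of different genes were compared after division by the length of the merged exons, as TMM-normalized CPM per kilobase. On this scale *Jag1* (mean 33.8 over the 4 libraries) and *Hes1* (33.0) were the most abundant members and lay above 95.2% of the 27856 genes with a length and a count. Their ranges over libraries overlapped, from 30.0 to 36.4 for *Jag1* and from 26.0 to 39.2 for *Hes1*, so their order is not settled. A gap followed, and *Notch1* (5.08), *Notch2* (5.0), *Hey2* (4.52), *Notch3* (4.04) and *Notch4* (2.64) came next, each overlapping its neighbor in the order. *Hey1* (1.30) and *Dll4* (1.17) were lower than *Notch4* in every library and overlapped each other. *Heyl* (0.224) was the lowest, between 0.104 and 0.392.

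**Figure D2:**
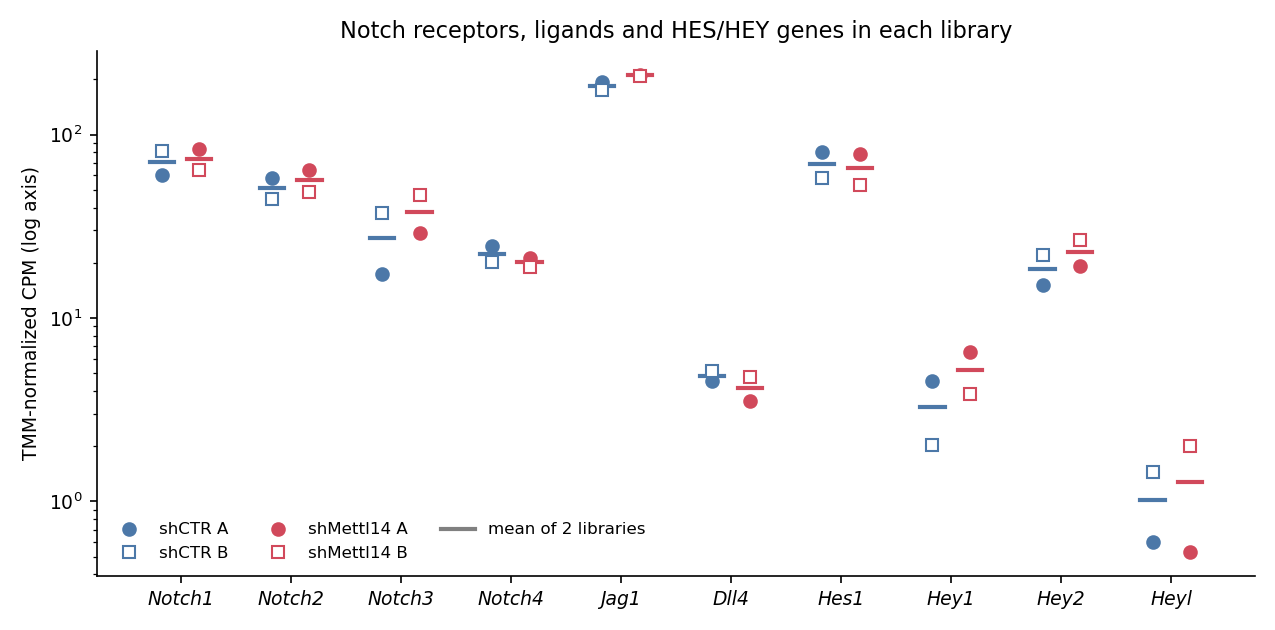
TMM-normalized CPM on a log axis (vertical) of the 10 genes (horizontal) in each library; blue is shCTR, red is shMettl14, filled circles are A, open squares are B and bars are means of 2 libraries. On this scale the groups separate for *Jag1* alone (174.6 and 194.4 against 207.7 and 212.4 CPM). For 8 of the 10 genes, *Notch3*, *Hey1* and *Heyl* among them, the letters lie further apart than the groups by mean log2 difference.

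No member passed an adjusted p of 0.05 in the quasi-likelihood test of edgeR, adjusted by Benjamini-Hochberg over the 18916 genes tested. The same fit called 0% of all genes at that threshold, DESeq2 called 5 genes and no member, and the edgeR result for *Mettl14* itself also missed the threshold (log2 change −2.08, standard error or SE 0.25, adjusted p = 1.0), so a missed threshold does not show that a member was unchanged. At an unadjusted p under 0.05 the fit called 0 of the 10 members and 1.67% of all genes. All 10 members passed the filter on low counts. Of these, 7 had a log2 change above 0 and 3 below, with a median of 0.17 beside 0.0094 over all genes tested. Both shMettl14 libraries lay above both shCTR libraries for 1 of the 10 members, *Jag1*, which was so for 14.7% of all genes, and they lay below for 0 of the 10, which was so for 13.3% of all genes. Within both letters 5 members were higher with shMettl14 and 3 were lower, beside 30% and 27.6% of all genes. With 2 libraries a group, the smallest two-sided p of an exact permutation test is 0.333.

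Among the receptors, *Notch3* differed most between the hairpins. *Notch3* (GRCm38 chromosome 17, 32120820 to 32166852, minus strand) had 17.4 and 37.6 CPM in shCTR A and B and 29.2 and 46.7 CPM in shMettl14 A and B. Each shMettl14 library was above the shCTR library of its letter, by 0.75 on the log2 scale in A and 0.31 in B, but the groups overlapped because B was high under both hairpins. The log2 change was 0.47 (SE 0.45, 95% interval −0.70 to 1.63). Without shCTR B the log2 change was 1.13 (unadjusted p = 0.021, adjusted p = 0.94 from edgeR), without shCTR A it was 0.019 and without shMettl14 B it was 0.097. Of the exon bases of *Notch3*, 6.03% overlap a gene on the other strand. How reads there were counted depends on the strand setting, which is not given.

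*Notch1*, the receptor shared by endothelium and many other tissues (chromosome 2, 26457903 to 26516663, minus strand), had 60.3 and 81.0 CPM in shCTR A and B and 83.2 and 64.5 CPM in shMettl14 A and B. The libraries crossed, with a log2 ratio of 0.47 in A and −0.33 in B, and the log2 change of 0.06 (SE 0.25, 95% interval −0.59 to 0.72) turned below 0 without shCTR A or shMettl14 A. Genes on the other strand overlap 9.76% of its exon bases. *Notch2*, the other broadly expressed receptor (chromosome 3, 98013527 to 98150361, plus strand), had 57.9 and 44.4 CPM with shCTR and 64.4 and 48.7 CPM with shMettl14 in A and B. It was slightly higher within each letter, by 0.15 and 0.13 on the log2 scale, while the groups overlapped. Its log2 change was 0.14 (SE 0.25, 95% interval −0.51 to 0.80), and it turned to −0.04 without shCTR B and −0.07 without shMettl14 A. A gene on the same strand overlaps 5.02% of the exon bases of *Notch2*.

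*Notch4*, a receptor of endothelial cells (chromosome 17, 34564268 to 34588503, plus strand), had 24.6 and 20.2 CPM with shCTR and 21.3 and 19.0 CPM with shMettl14 in A and B. It was the receptor with the narrowest spread, and its log2 change was −0.15 (SE 0.23, 95% interval −0.74 to 0.43). The log2 ratio was −0.20 in A and −0.09 in B, and on library totals without TMM it was 0.048 in B. Summed per kilobase, the receptors came to 14.8 and 17.0 CPM per kilobase in shCTR A and B and to 18.1 and 17.2 in shMettl14 A and B. *Notch3* and *Notch2* took shares that did not overlap between the A and B libraries, and those of *Notch1* and *Notch4* overlapped. *Notch3* held 14.5% and 20.0% of the receptor sum in the A libraries of shCTR and shMettl14 and 27.4% and 33.6% in the B libraries, and *Notch2* held 36.3% and 33.0% in A and 24.3% and 26.3% in B. The share of *Notch1* was 28.6% and 33.6% in shCTR A and B and 32.3% and 26.4% in shMettl14 A and B. That of *Notch4* was 20.6% and 14.8% in shCTR A and B and 14.6% and 13.7% in shMettl14 A and B, lower in B under both hairpins.

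**Figure D3:**
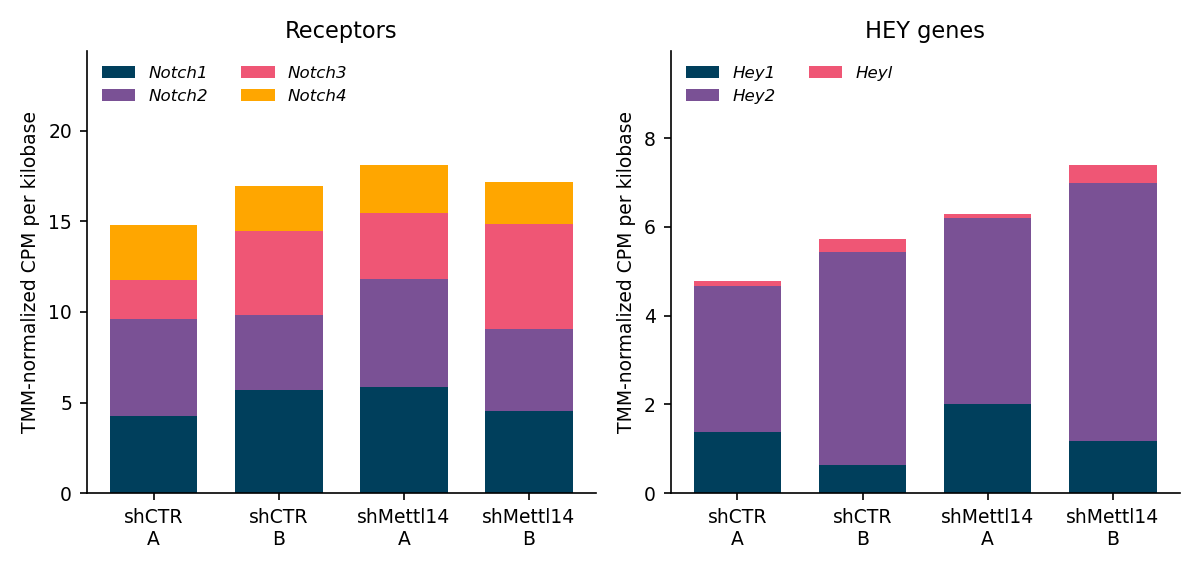
TMM-normalized CPM per kilobase (vertical) of the receptor genes (left) and of the HEY genes (right), stacked for each of the 4 libraries (horizontal). *Notch3* takes a larger share in both B libraries (27.4% and 33.6%) than in both A libraries, and *Hey2* makes up most of the HEY sum in every library.

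Of the ligands, *Jag1* supplied between 95.7% and 97.5% of the summed level per kilobase of *Jag1* and *Dll4*. *Jag1* (chromosome 2, 137081456 to 137116644, minus strand) had 194 and 175 CPM in shCTR A and B and 212 and 208 CPM in shMettl14 A and B. Both shMettl14 libraries were above both shCTR libraries, also on library totals, and the means were 184 ± 14.0 and 210 ± 3.33 CPM (SD, n = 2 libraries each). The log2 change was 0.19 (SE 0.19, 95% interval −0.30 to 0.67), equal in size to its error, and it stayed between 0.11 and 0.27 with each library left out in turn. *Dll4* (chromosome 2, 119325784 to 119335962, plus strand), the ligand of arterial and sprouting endothelium, had 4.51 and 5.13 CPM with shCTR and 3.54 and 4.79 CPM with shMettl14 in A and B. The groups overlapped, and the log2 change was −0.21 (SE 0.34, 95% interval −1.08 to 0.66). The log2 ratio of *Dll4* was −0.35 in A and −0.10 in B, the latter turning to 0.043 on library totals. A gene on the other strand overlaps 5.56% of the exon bases of *Dll4*.

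*Hes1*, a HES gene that Notch and several other signals induce (chromosome 16, 30064384 to 30067796, plus strand), had 80.0 and 57.7 CPM in shCTR A and B and 78.1 and 53.0 CPM in shMettl14 A and B. The values were paired by letter and nearly the same under both hairpins. The log2 change was −0.07 (SE 0.29, 95% interval −0.83 to 0.69) and the log2 ratios were −0.03 in A and −0.12 in B, which became 0.046 and 0.019 on library totals. *Hes1* thus had no settled direction, and without shCTR A or shMettl14 B it was above 0, at 0.19 in both cases. It made up between 77.9% and 89.1% of the summed level per kilobase of the HES and HEY members.

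The HEY genes encode close relatives of HES proteins, and *Hey2* and *Heyl* are known from arterial smooth muscle. *Hey2* (chromosome 10, 30832359 to 30842801, minus strand) had 15.0 and 22.1 CPM in shCTR A and B and 19.2 and 26.7 CPM in shMettl14 A and B. Each shMettl14 library was above the shCTR library of its letter, by 0.35 in A and 0.27 in B on the log2 scale, whereas shMettl14 A lay below shCTR B. The log2 change was 0.31 (SE 0.31, 95% interval −0.48 to 1.10), and it ranged from 0.057 to 0.61 with each library left out. Of the 7 members with a RefSeq promoter window on hand, only *Hey2* carries the word that RBPJ binds, and its window is shown for that reason. No window was on hand for *Hes1*, *Hey1* or *Heyl*, so *Hey2* was the only HES or HEY member searched. Windows of 300 bases, 250 before the start and 50 after it, were on hand for 7 members, *Notch1*, *Notch2*, *Notch3*, *Notch4*, *Jag1*, *Dll4* and *Hey2*. They were searched for GTGGGAA and for its reverse complement TTCCCAC, which overlap no other word searched. Of the 7 windows 1 held a match, and of all 32851 windows of this length 6.38% did, while 0.256% held 2 or more, as *Hey2* did. The first 253 bases of the *Hey2* window are chr10:30842781-30843033 of GRCm38.p6, on the minus strand, given from 5′ to 3′ with both matches in capitals.
Hey2: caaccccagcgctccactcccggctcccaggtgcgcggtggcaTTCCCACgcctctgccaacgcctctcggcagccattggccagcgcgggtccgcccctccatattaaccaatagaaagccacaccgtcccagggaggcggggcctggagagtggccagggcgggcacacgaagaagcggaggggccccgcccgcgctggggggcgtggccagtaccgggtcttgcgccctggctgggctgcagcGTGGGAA
The first match begins 207 bases before the RefSeq start of the gene and reads on the opposite strand, and the second begins 4 bases before the start and reads along the gene. A match is a stretch of letters and not a measured binding site.

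*Hey1* had the largest fold change of the members. *Hey1* (chromosome 3, 8663359 to 8667256, minus strand) had 4.53 and 2.04 CPM in shCTR A and B and 6.54 and 3.87 CPM in shMettl14 A and B. It was higher with shMettl14 within each letter, by 0.53 in A and 0.92 in B on the log2 scale, but shMettl14 B lay below shCTR A. In TPM, a scale on which the median ratio of all genes was 0.12 in A and 0.18 in B, *Hey1* had 4.71 and 2.23 with shCTR and 7.41 and 4.76 with shMettl14, so that the groups were narrowly apart. The log2 change was 0.66 (SE 0.53, 95% interval −0.71 to 2.03). Without shCTR A it was 1.36 (unadjusted p = 0.049, adjusted p = 0.69 from edgeR), and without shCTR B it was 0.19. *Heyl* (chromosome 4, 123233556 to 123249875, plus strand), the smooth muscle HEY gene linked with Notch3, had only 68 and 156 counts in shCTR A and B and 63 and 261 counts in shMettl14 A and B. These were 0.599 and 1.44 CPM with shCTR and 0.531 and 2.01 CPM with shMettl14, high in B and low in A under both hairpins. Its log2 change was 0.31 (SE 0.81, 95% interval −1.76 to 2.39), with a log2 ratio within A of −0.17, one within B of 0.47, and values from −0.94 to 1.08 when 1 library was left out.

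The HEY sum per kilobase was 4.78 and 5.72 CPM per kilobase in shCTR A and B and 6.29 and 7.38 in shMettl14 A and B. The mean was 1.30 times that of shCTR. The sums did not overlap, although *Hey1*, *Hey2* and *Heyl* each overlapped when taken singly on this scale. The share of all genes with both shMettl14 libraries above, 14.7%, is for single genes and is no background for a sum. *Hey1* was lower in B and *Hey2* higher under both hairpins, so their letter differences offset each other in the sum. The receptor sums given above were only narrowly apart, with 17.0 in shCTR B and 17.2 in shMettl14 B. The ligand sum was 34.5 and 31.3 CPM per kilobase in shCTR A and B and 37.4 and 36.9 in shMettl14 A and B. As *Jag1* made up between 95.7% and 97.5% of it, this repeats the result of *Jag1*. *Hey2* held between 66.5% and 84.1% of the HEY sum. The HES and HEY sum, which *Hes1* dominates, was 39.0 ± 7.07 with shCTR and 39.0 ± 7.94 with shMettl14 (SD, n = 2 libraries each).

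**Figure D4:**
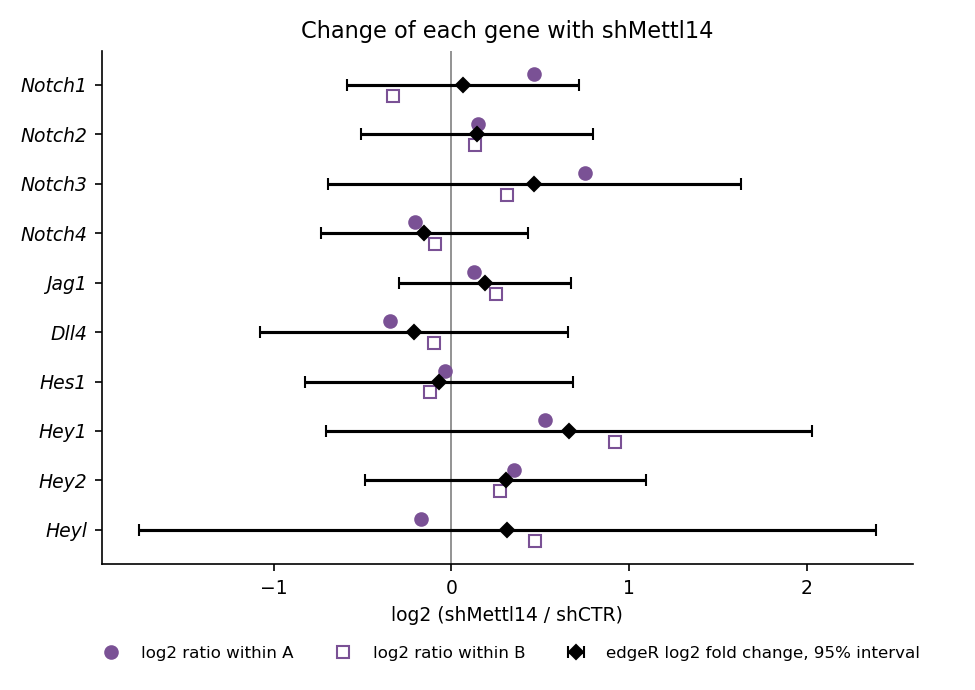
Log2 change of shMettl14 over shCTR (horizontal) for each gene (vertical); black diamonds are edgeR log2 changes with 95% intervals, filled circles the ratio within A and open squares within B. Every interval crosses 0, and the widest is that of *Heyl* (−1.76 to 2.39).

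The letters separated most members more than the hairpins did. The mean log2 difference of B over A was larger in size than that of shMettl14 over shCTR for 8 of the 10 members, beside 64.2% of all genes tested, and *Notch1* and *Jag1* were the exceptions. *Notch3* was higher in B than in A by 1.11 with shCTR and 0.68 with shMettl14 on the log2 scale, *Heyl* by 1.25 and 1.89, and *Hey2* by 0.55 and 0.47. *Hey1* was lower in B, by −1.15 and −0.75, as was *Hes1*, by −0.47 and −0.56. Smooth muscle, fibroblast, endothelial and pericyte markers went both ways between the letters. Values in brackets are shCTR, then shMettl14. *Myh11* was lower in B (101 and 75.0 CPM in B, 338 and 233 CPM in A). *Smtn* was higher in B (170 and 158 CPM in B, 145 and 129 CPM in A). The fibroblast marker *Col14a1* was lower in B (37.6 and 44.5 CPM in B, 322 and 318 CPM in A). Another, *Dcn*, was higher in B (160 and 120 CPM in B, 68.3 and 72.3 CPM in A). Of the 13 endothelial markers, 7 were higher in B under both hairpins, such as *Emcn* (2100 and 1077 CPM in B, 649 and 484 CPM in A), and 4 were lower, such as *Egfl7* (118 and 120 CPM in B, 209 and 170 CPM in A). Of 4 pericyte markers other than *Notch3*, 2 were lower in B, such as *Rgs5* (40.5 and 48.8 CPM in B, 286 and 270 CPM in A), and 2 were higher, such as *Abcc9* (1.06 and 1.78 CPM in B, 0.352 and 0.446 CPM in A). Their part in the letter differences of the members was not tested.

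The other genes of the pathway were described from 8 lists of 68 genes in all, of which 64 passed the filter. None had an adjusted p under 0.05, and 1 had an unadjusted p under 0.05, beside 1.67% of all genes. The median log2 change was −0.02 with 28 above 0 and 36 below. In 6 of the 64 genes both shMettl14 libraries lay above both shCTR libraries, beside 14.7% of all genes tested. In 8 of the 64 they lay below, beside 13.3% of all genes tested. The gene with the unadjusted p was *Ctbp2*, a corepressor that joins repressor complexes, with 46.6 and 62.9 CPM in shCTR A and B and 32.3 and 35.3 CPM in shMettl14 A and B. Its log2 change was −0.70 (SE 0.23, unadjusted p = 0.031, edgeR adjusted p = 1.0). It did not stay under 0.05 without shCTR B, shMettl14 A or shMettl14 B.

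In the nuclear complex, *Rbpj*, the DNA-binding partner of every Notch receptor, had the highest CPM of 8 genes. It had 302 and 355 CPM in shCTR A and B and 240 and 228 CPM in shMettl14 A and B, so that both knockdown libraries lay below both controls. The log2 change was −0.49 (SE 0.20, unadjusted p = 0.056, edgeR adjusted p = 1.0). It ranged from −0.60 without shCTR A to −0.37 without shCTR B when each library was left out. *Maml3*, one of the Mastermind coactivators, had the largest change of this list, with 2.49 and 2.26 CPM with shCTR and 3.92 and 2.96 CPM with shMettl14 in A and B and a log2 change of 0.53 (SE 0.36). The median of the list was −0.0040, with 4 genes above 0 and 4 below.

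**Figure D5:**
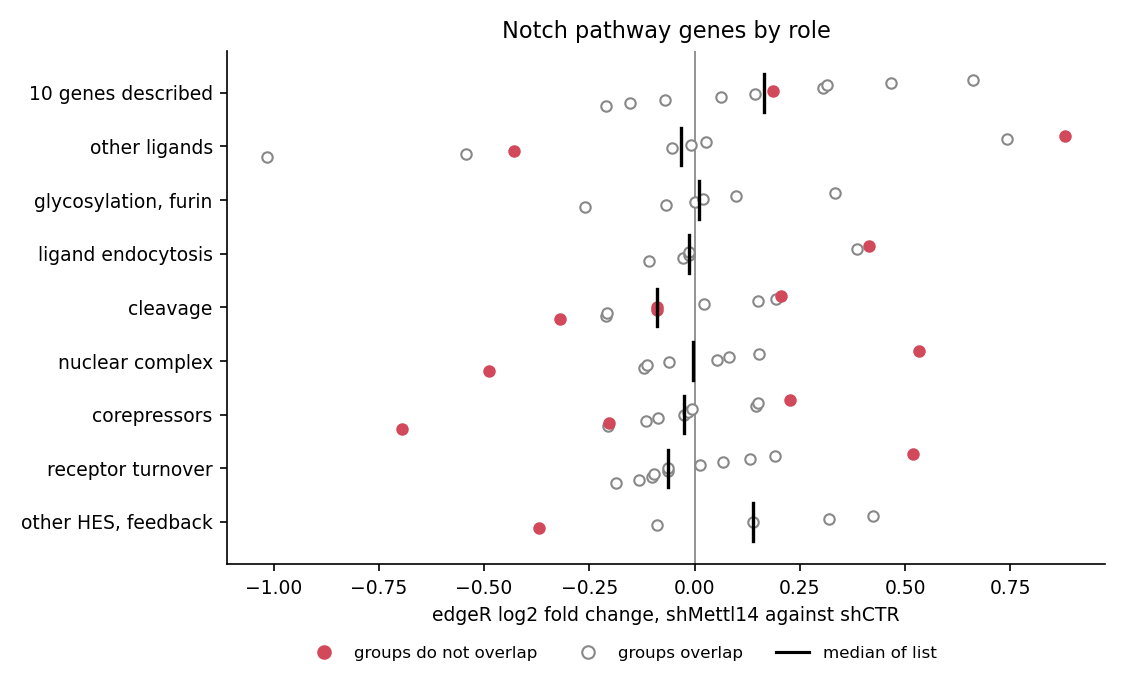
edgeR log2 change of shMettl14 against shCTR (horizontal) of each tested gene in the 10 members and the 8 other lists (vertical); filled red points have groups that do not overlap, open grey points overlap and black lines are medians. The medians lie near 0, and *Ctbp2* (−0.70) and *Rbpj* (−0.49) are among the points on the left whose groups do not overlap.

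Among the other 9 ligand genes, 8 were tested. *Mfap5*, a microfibril protein that can bind Notch1, had the highest CPM, with 124 and 117 CPM in shCTR A and B and 89.4 and 89.6 CPM in shMettl14 A and B, a log2 change of −0.43 (SE 0.18, unadjusted p = 0.067 from edgeR). *Dlk2*, a noncanonical ligand, had the largest change, −1.01 (SE 1.12), from 2.30 and 0.380 CPM with shCTR to 1.10 and 0.223 CPM with shMettl14 in A and B. *Dll3* was at most 0.083 CPM and was not tested. For ligand endocytosis, *Mib1*, the ubiquitin ligase that acts on Jag and Dll ligands, had 78.2 and 77.9 CPM with shCTR and 105 and 103 CPM with shMettl14, a log2 change of 0.41 (SE 0.18, unadjusted p = 0.071 from edgeR). *Epn1*, an adaptor of endocytosis, had the highest CPM of these 6 genes and a log2 change of −0.03 (SE 0.42).

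With all 4 libraries, no gene for the processing of receptors had an unadjusted p under 0.05. Of the 9 genes for cleavage, *Ncstn*, a subunit of γ-secretase, had the highest CPM and lay between 222 and 243 CPM, with a log2 change of −0.09 (SE 0.18). *Psenen*, another subunit, had the largest change of that list, −0.32 (SE 0.19), from 42.1 and 41.5 CPM to 34.8 and 32.3 CPM. Of 6 genes for glycosylation and furin cleavage, *Furin* had the highest CPM, with a log2 change of 0.10 (SE 0.30). *Pofut1*, which adds fucose to Notch, had the largest change, 0.33 (SE 0.32), which was 0.79 without shCTR A and −0.016 without shCTR B. Of 11 genes for receptor turnover, *Nedd4* had the highest CPM, between 1763 and 2944 CPM, with a log2 change of −0.10 (SE 0.32), and *Dtx4*, a Deltex ubiquitin ligase, had the largest change, 0.52 (SE 0.34).

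Among the 8 other HES and feedback genes, *Hes2*, *Hes3* and *Hes5* stayed under 0.15 CPM in every library and were not tested. *Nrarp*, a Notch target that limits Notch signaling, had the largest change of the 5 that were tested, with 13.9 and 4.90 CPM in shCTR A and B and 14.9 and 10.3 CPM in shMettl14 A and B. Its log2 ratio was 0.10 in A and 1.07 in B, and its log2 change was 0.42 (SE 0.55). The change of *Nrarp* was 1.37 without shCTR A but turned to −0.15 without shCTR B. It was 0.13 without shMettl14 A and 0.67 without shMettl14 B. *Bhlhe40*, which had the highest CPM of the list, had a log2 change of −0.37 (SE 0.23). In a list of 10 further genes that Notch is known to influence, *Acta2* had an unadjusted p under 0.05, with a log2 change of −0.58 (SE 0.21, unadjusted p = 0.038, edgeR adjusted p = 1.0). It missed that threshold without shCTR A (−0.39), shMettl14 A (−0.61) or shMettl14 B (−0.54). Of the 10, 8 lay below 0, and *Acta2*, *Myh11* and *Tagln* among them are also in the smooth muscle list above, while 51.2% of all genes lay above 0.

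The genes whose pattern over the 4 libraries was most like that of each member were found by the Euclidean distance of log2 CPM, each gene centered on its own mean, among 13018 genes with a mean of at least 1 CPM. For *Notch1* the nearest were *Fbxl7* (distance 0.029), *1810024B03Rik* and *Gm12963*, for *Notch2* *Zfp316* (0.025), *Acacb* and *Sepn1*, for *Notch3* *Etv1* (0.098), *Mmp16* and *Kcnn3*, and for *Notch4* *Ckap4* (0.023) and *Uba7*. Among the ligands, *Jag1* was closest to *Tmem144* (0.021), *Fzd5* and *Otud7b*, and *Dll4* to *Tmem97* (0.032), *Cdh10* and *Dstn*. *Hes1* was closest to *Pomgnt2* (0.030), *Tmem129* and *Nop10*, *Hey1* to *Ogdhl* (0.10), *Gpr162* and *2900052L18Rik*, *Hey2* to *Tfdp2* (0.024), *Zfp266* and *Zfp141*, and *Heyl* to *Lctl* (0.14), *Hoxa7* and *Ctsc*. No member was among the 3 nearest genes of another, and the closest pair of members was *Notch2* and *Hes1* (distance 0.25).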

How the data were processed

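mRNA-seq was available for 4 libraries of primary mouse VSMCs, 2 with shCTR and 2 with shMettl14, grouped by their sample titles. Per the labels and the study's methods, the authors sequenced stranded poly-A libraries on both ends, mapped the reads to mm10 (GRCm38, Ensembl 86) using STAR, and featureCounts gave a count for each gene. The deposited values are the authors' raw counts; versions, the strand setting and the handling of multiply mapped reads are not given in the sources used here.

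Counts were tested with edgeR 4.0.16 in R 4.3.3 (TMM, filterByExpr, robust quasi-likelihood fit without a block, Benjamini-Hochberg adjustment over 18916 genes, threshold 0.05). Standard errors (SE) were the size of the log2 change divided by the square root of F, and 95% intervals use the t distribution with the fit's degrees of freedom. Log2 ratios within letters were taken from log2 CPM, prior count 2. Gene places and merged exon lengths came from GENCODE M21 (GRCm38), a later annotation than the authors used, and ordering by TPM gave the same order of levels. Promoter windows came from RefSeq (GRCm38.p6). Alternatives were DESeq2 1.42.0, RLE and upper-quartile factors, other filters (10 counts in every library, or 1 in total), a replicate block, each library left out, prior counts of 0.5 and 10 and scaling by totals. The rule for naming genes took the 10 members, *Mettl14*, and from each pathway list the genes with an unadjusted p under 0.05, the one with the highest CPM and the one with the largest change, and the 3 genes most like each member. Of the genes this rule names, 2 are not reported here. Markers and genes outside it were named after their values were seen. The members and lists were chosen with earlier results of these data known. Python 3.11.15, numpy 2.4.6, scipy 1.17.1, pandas 2.3.3 and matplotlib 3.10.9 did the remaining steps.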

Additional observations from a re-analysis of the deposited data

How the results depend on the processing

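With all 4 libraries, the log2 changes of the 10 members kept their direction in 60 of 60 values over 6 alternatives, and the lowest adjusted p over all alternatives was 0.35. With a library left out, 8 of 40 values turned: *Notch1* ranged from −0.13 to 0.29, *Notch2* from −0.071 to 0.35, *Hes1* from −0.38 to 0.19 and *Heyl* from −0.94 to 1.08. On library totals, which raise the median ratio of all genes tested to 0.082 in A and 0.16 in B, the ratios of *Hes1* were 0.046 in A and 0.019 in B, that of *Dll4* in B 0.043 and that of *Notch4* in B 0.048, and all 4 had been below 0. Scaling by totals leaves out the TMM factors, which were 0.980 and 0.945 in shCTR A and B and 1.036 and 1.042 in shMettl14 A and B. Why these factors differed was not tested.

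No member had an adjusted p under 0.05 in any fit, DESeq2 included. A replicate block on the letters raised the members with an unadjusted p under 0.05 and a higher level from 0 to 2, *Notch3* (log2 change 0.53, edgeR adjusted p = 0.35) and *Hey1* (0.72, edgeR adjusted p = 0.37). The count was 0 to 1 with a library left out. For the 64 other pathway genes tested the block gave 3 higher (*Jag2*, *Mib1*, *Nrarp*) and 5 lower (*Dlk2*, *Mfap5*, *Rbpj*, *Ctbp2*, *Bhlhe40*) at that level. Among all 18916 genes tested the block gave 892 higher and 1049 lower at the same level. Over the whole table DESeq2 called 5 genes at an adjusted p under 0.05, the block 9 and the fits without a library 0 to 1. At an unadjusted p under 0.05 the block gave 892 higher and 1049 lower, the fits without a library 20 to 978 higher and 58 to 421 lower, and the fit without a filter 189 higher. Where a group has 1 library, its spread is assumed to equal that of the other group. Libraries of the same letter deviated together (correlation 0.578 across genes), but with 2 pairs and no statement that a letter marks a shared culture the block stays an alternative. The lowest count of a member in a library was 63.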
